A study of Homo sapiens with 8 samples.

Results

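A run of 34 neighbouring genes on the short arm of human chromosome 1, from SRSF4 to ZBTB8A, was described in cells with and without a hairpin against CDCA8. The genes are those of a given list found in the table of RNA sequencing values, 34 of 18892 rows, and they were chosen by their difference between the 2 groups, as the stretch of neighbours that stood highest after the knockdown. The same values are reported here, so each difference between the groups is a description, and no p-value is given for a member. The cells were C4-2, a castration-resistant subline of the prostate cancer line LNCaP. PolyA RNA was sequenced from C4-2 cells with a short hairpin RNA that targets CDCA8 (shCDCA8, 2 libraries) and with a control hairpin (shCTRL, 2 libraries). The product of CDCA8, borealin, belongs to the chromosomal passenger complex, which corrects chromosome attachments in mitosis and takes part in cytokinesis. The labels name 1 hairpin per group, call it a transfection, give no clone, vector or time, and do not say that the replicates were separate cultures, so the spread between replicates may be technical.

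Genes that lie side by side on a chromosome share DNA copy number, replication timing and often a chromatin domain, while each keeps its own promoter and enhancers. The genes of this stretch were not chosen by pathway, and whether they share one was not tested. They encode matrix and surface proteins, RNA-binding and splicing factors, phosphatases and kinases, and a histone deacetylase. Band names such as 1p35 are not in the gene tables used here, so the order of the genes, taken from RefSeq (GRCh38.p14), stands in for the band.

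Values are RPM as deposited, that is, reads scaled by a divisor set for each library, and a level of a gene was not divided by its length, so levels are compared between libraries and not between genes. The RPM divisors were 52248230 and 55289855 reads in the shCDCA8 libraries and 53305010 and 46709612 reads in the shCTRL libraries, and the gene rows took 33.3% and 34.2% of them in shCDCA8 and 41.1% and 43.6% in shCTRL. The whole table was lower in shCDCA8, with a median log2 fold change of -0.27 over 11833 tested genes, for which 2 or more of the 4 libraries had to reach 1 RPM. The log2 fold changes below are on the scale of log2(RPM + 1), which understates the change of low genes, and a standard error (SE) is that of the limma fit over all tested genes. CDCA8 itself was at 3.98 and 3.94 RPM in shCDCA8 libraries and at 14.2 and 16.5 RPM in shCTRL libraries. RNA of the whole culture was measured, so a change in the share of cells and a change in RNA per cell cannot be told apart.

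Summed over the 34 genes, the level was 3250 and 3106 RPM in shCDCA8 libraries and 1350 and 1472 RPM in shCTRL libraries. Of the 34 genes 30 were tested, and HCRTR1, DCDC2B, FAM167B and LCK were too low. Of the 30, 26 stood higher in shCDCA8 (log2 fold change above 0 in 34.8% of all tested genes) and 4 stood lower. The groups of these 30 genes did not overlap, while over all tested genes 26.5% did not overlap and stood higher and 56.8% did not overlap and stood lower. In limma, 26 of the 30 passed the threshold (adjusted p under 0.05 over all tested genes) upward, where 18.8% of all tested genes did, and SRSF4, TMEM39B and ZBTB8A passed it downward, where 47.6% did. In either direction 66.4% of all tested genes passed, and MECR did not. With median-ratio scaling of the libraries 26 members passed upward, where 33.2% of all tested genes did, and ZBTB8A alone downward, where 33.6% did. Because this contrast chose the members, nothing is read from these shares. The median log2 fold change was 0.79 over the 30 genes. It includes 6 genes that passed the filter through the shCDCA8 libraries alone and so had to differ. Without those 6 the median over 24 genes was 0.65.

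**Figure D1:**
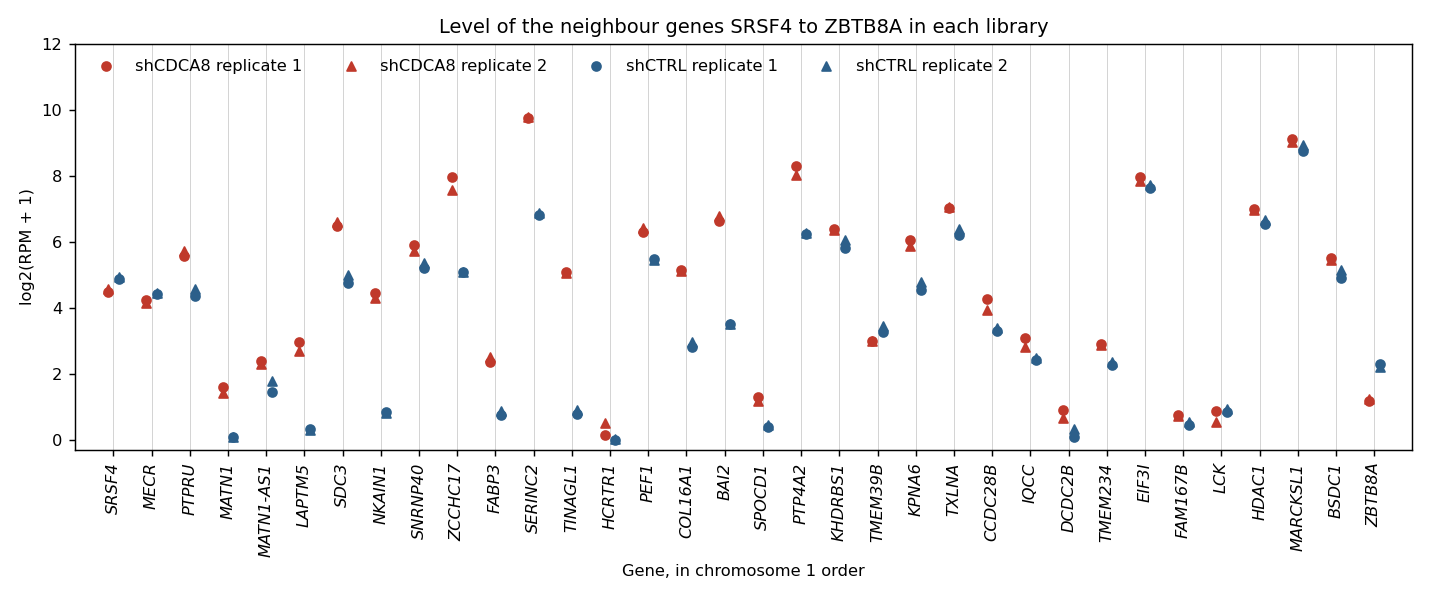
Level of each of the 34 genes, as log2(RPM + 1), in the 2 shCDCA8 libraries (red) and the 2 shCTRL libraries (blue), with genes in chromosome order and circles and triangles for replicates 1 and 2. The groups are widest apart between LAPTM5 and PTP4A2, and SRSF4, MECR, TMEM39B, LCK and ZBTB8A have lower means in shCDCA8.

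The change was not even along the stretch. The 16 tested members from PTPRU to PTP4A2 were all higher in shCDCA8, with a median log2 fold change of 1.79 and a lowest value of 0.55 (SNRNP40). The 11 tested members from KHDRBS1 to BSDC1 were nearer to the table, with a median of 0.45 and 10 of 11 higher. These borders were drawn after the values were seen. Of the 30 genes, 13 had a log2 fold change of at least 1 (43.3%, against 3.19% of all tested genes) and 7 of at least 2 (23.3%, against 0.118%). Among the 24 that also passed the filter in shCTRL, 8 and 4 did. The 7 are LAPTM5, NKAIN1, ZCCHC17, SERINC2, TINAGL1, COL16A1 and BAI2, and all of them lie between PTPRU and PTP4A2.

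Among the genes of the extracellular matrix, TINAGL1, which encodes a secreted matricellular protein, was at 33.4 and 32.2 RPM in shCDCA8 libraries, against 0.732 and 0.856 RPM in shCTRL libraries. The shCTRL values rest on 39 and 40 reads, and the log2 fold change was 4.24 ± 0.132 (SE), the highest of all tested genes. On the linear scale the ratio of the mean RPM was 41.3. COL16A1, which encodes a fibril-associated collagen chain, was at 34.1 and 33.6 RPM in shCDCA8 libraries, against 6.06 and 6.81 RPM in shCTRL libraries (log2 fold change 2.23 ± 0.123). In these genes the replicates of a group lie close together and far from the other group. MATN1, which encodes a cartilage matrix protein, had 107 and 92 reads in shCDCA8 libraries, against 3 and 3 reads in shCTRL libraries. The ratio of its reads per divisor was 30.8, with an exact 95% interval of 13.9 to 85.1 that covers counting error only. MATN1-AS1, the antisense gene that overlaps it, was at 4.27 and 3.91 RPM in shCDCA8 libraries, against 1.74 and 2.42 RPM in shCTRL libraries. No source used here states whether counting used strand, so reads of this pair cannot be told apart.

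Markers of cartilage and of fibroblasts were set beside these members. Of 6 cartilage markers 4 were listed, with a summed level of 0.459 and 0.326 RPM in shCDCA8 libraries and 1.01 and 0.985 RPM in shCTRL libraries. All 6 fibroblast markers were listed, and their summed level was 3.85 and 4.30 RPM in shCDCA8 libraries and 9.83 and 12.2 RPM in shCTRL libraries. COL1A1, the collagen chain of bone and skin, made up most of that sum and fell (log2 fold change -1.30). COL3A1, another fibrillar collagen chain, went the other way, with 11 and 12 reads in shCDCA8 libraries, against 1 and 8 reads in shCTRL libraries. Their part in the result was not tested.

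Genes of surface and membrane proteins held several of the largest differences. BAI2, an adhesion G protein-coupled receptor that RefSeq names ADGRB2, was at 98.4 and 109 RPM in shCDCA8 libraries, against 10.3 and 10.3 RPM in shCTRL libraries (log2 fold change 3.20 ± 0.110). SERINC2, of the serine incorporator family of membrane proteins, was at 869 and 889 RPM in shCDCA8 libraries, against 112 and 116 RPM in shCTRL libraries (2.93 ± 0.0846). NKAIN1, which encodes a membrane protein that binds the sodium-potassium pump, was at 21.1 and 18.9 RPM in shCDCA8 libraries, against 0.807 and 0.771 RPM in shCTRL libraries (3.55 ± 0.135). All 3 were well separated between the groups, by 7.69-fold for SERINC2, 10.0-fold for BAI2 and 25.4-fold for NKAIN1 in mean RPM.

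SDC3, a syndecan that carries heparan sulphate, was at 88.9 and 95.9 RPM in shCDCA8 libraries, against 26.1 and 30.9 RPM in shCTRL libraries (log2 fold change 1.67 ± 0.114). PTPRU, a receptor-type tyrosine phosphatase, was at 46.4 and 51.6 RPM in shCDCA8 libraries, against 19.7 and 22.6 RPM in shCTRL libraries (1.17 ± 0.118). It is the first gene of the stretch that stood higher, after SRSF4 and MECR. TMEM234, a multi-pass membrane protein gene, was higher by 0.57, while TMEM39B, a gene of an endoplasmic reticulum membrane protein, was at 6.91 and 6.96 RPM in shCDCA8 libraries, against 8.74 and 10.0 RPM in shCTRL libraries (-0.38 ± 0.133). TMEM39B lies between KHDRBS1 and KPNA6, both higher.

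Several members are known from other cell types. LAPTM5, a lysosomal membrane protein gene of blood cells, was at 6.83 and 5.50 RPM in shCDCA8 libraries, against 0.263 and 0.235 RPM in shCTRL libraries. The shCTRL values rest on 14 and 11 reads, and the ratio of reads per divisor was 24.6 (exact 95% interval 16.5 to 38.3). LCK, the Src-family kinase of T cells, was at 0.823 and 0.470 RPM in shCDCA8 libraries, against 0.807 and 0.899 RPM in shCTRL libraries, and its groups overlap. Of 16 leukocyte markers 12 were listed, and their summed level was 1.59 and 1.88 RPM in shCDCA8 libraries, against 4.31 and 5.22 RPM in shCTRL libraries. The tested markers CD4 and CD8A both fell, but they passed the filter through the shCTRL libraries alone and so had to stand lower in shCDCA8. CD3E and MS4A1 had no read in shCDCA8, and 1 read each in shCTRL. LAT, an adaptor of the T cell receptor, stood higher, with 15 and 22 reads in shCDCA8 libraries, against 12 and 5 reads in shCTRL libraries. The summed level of the list was thus lower in shCDCA8, where LAPTM5 was higher.

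HCRTR1, an orexin receptor gene, had 6 and 24 reads in shCDCA8 libraries, against 0 and 1 read in shCTRL libraries. The ratio of reads per divisor was 27.9, with an exact 95% interval of 4.64 to 1138. That interval covers counting error only and leaves out the wide difference between the shCDCA8 replicates. HCRTR1 overlaps PEF1, which has far more reads. FABP3, the fatty acid binding protein of heart and muscle, was at 4.11 and 4.70 RPM in shCDCA8 libraries, against 0.694 and 0.835 RPM in shCTRL libraries. In RefSeq it overlaps ZCCHC17, which has far more reads and lies on the other strand. Neuron and glia markers (4 of 5 listed) summed to 0.0191 and 0.0723 RPM in shCDCA8 libraries and 0.244 and 0.257 RPM in shCTRL libraries, with SNAP25 at 0 reads in shCDCA8 and 1 read in shCTRL, and GFAP at 2 reads in shCDCA8 and 0 in shCTRL. Striated muscle markers (5 of 5 listed) summed to 10.5 and 12.4 RPM in shCDCA8 libraries and 49.7 and 53.1 RPM in shCTRL libraries, nearly all of it MB, the myoglobin gene, which fell by 2.11 on the log2 scale. Of the low muscle genes, CKM had 4 and 4 reads in shCDCA8 libraries, against 0 and 2 reads in shCTRL libraries. TNNT2 had 6 and 8 reads in shCDCA8 libraries, against 6 and 3 reads in shCTRL libraries. The C4-2 identity list, luminal prostate genes, was expressed in both groups, with 9 of 9 tested, of which 6 fell and KRT8 and KRT18 rose. Under median-ratio scaling 3 of the 9 passed upward and 5 downward. Over all tested genes 18.8% rose and 47.6% fell, and 33.2% and 33.6% passed upward and downward with that scaling.

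The RNA-binding proteins of the stretch differed in size and sign. ZCCHC17, a zinc-finger protein of the nucleolus, was at 250 and 188 RPM in shCDCA8 libraries, against 32.8 and 32.9 RPM in shCTRL libraries (log2 fold change 2.68 ± 0.127). Its shCDCA8 replicates differed by 0.41 on the log2 scale, the most of any tested member, and both were still above shCTRL. SNRNP40, a subunit of the spliceosomal U5 particle, was at 59.5 and 52.3 RPM in shCDCA8 libraries, against 35.9 and 39.7 RPM in shCTRL libraries (0.55 ± 0.112). KHDRBS1, the RNA-binding protein Sam68, was at 83.0 and 81.4 RPM in shCDCA8 libraries, against 55.2 and 65.0 RPM in shCTRL libraries (0.45 ± 0.108). EIF3I, a subunit of the translation initiation complex eIF3, was higher by 0.23 ± 0.0905. SRSF4, an SR protein of splicing at the start of the stretch, was at 21.2 and 22.8 RPM in shCDCA8 libraries, against 28.2 and 29.6 RPM in shCTRL libraries (-0.38 ± 0.113).

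ZCCHC17 and SNRNP40 are read in opposite directions from start sites 244 bases apart, and the promoter windows of RefSeq for the pair share 257 of 300 bases. The log2 fold changes of this pair, 2.68 and 0.55, are thus far apart although the same DNA lies before both starts. EIF3I and TMEM234 form the other such pair, with starts 54 bases apart and 153 shared bases, and had log2 fold changes of 0.23 and 0.57. The promoters of the 5 tested members with the highest log2 fold change that have an entry, and that of SNRNP40, added after its value was seen, are shown to let their sequences be set side by side. Each runs from 250 bases before to 50 bases after the most upstream start site in RefSeq (GRCh38.p14), on the gene's own strand, and capitals mark matches to GGGCGG (the GC box) or CCAAT on either strand. TATAAA was searched too and is in none of the 6. The windows lie at chr1:31576265-31576564 (plus strand) for TINAGL1, chr1:31239838-31240137 (minus strand) for NKAIN1, chr1:31764291-31764590 (minus strand) for BAI2, chr1:31409527-31409826 (plus strand) for SERINC2, chr1:31296782-31297081 (plus strand) for ZCCHC17 and chr1:31296739-31297038 (minus strand) for SNRNP40.
TINAGL1: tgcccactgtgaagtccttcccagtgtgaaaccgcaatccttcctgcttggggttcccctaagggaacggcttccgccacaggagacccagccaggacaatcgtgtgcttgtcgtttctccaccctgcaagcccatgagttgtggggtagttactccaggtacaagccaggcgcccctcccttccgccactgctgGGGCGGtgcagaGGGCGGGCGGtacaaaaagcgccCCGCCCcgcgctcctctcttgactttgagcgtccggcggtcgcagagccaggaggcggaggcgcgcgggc
NKAIN1: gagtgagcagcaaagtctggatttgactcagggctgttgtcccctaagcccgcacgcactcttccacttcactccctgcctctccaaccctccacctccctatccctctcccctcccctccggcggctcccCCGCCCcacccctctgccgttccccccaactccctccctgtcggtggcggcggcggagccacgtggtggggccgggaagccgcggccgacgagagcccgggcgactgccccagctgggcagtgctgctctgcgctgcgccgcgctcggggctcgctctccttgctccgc
BAI2: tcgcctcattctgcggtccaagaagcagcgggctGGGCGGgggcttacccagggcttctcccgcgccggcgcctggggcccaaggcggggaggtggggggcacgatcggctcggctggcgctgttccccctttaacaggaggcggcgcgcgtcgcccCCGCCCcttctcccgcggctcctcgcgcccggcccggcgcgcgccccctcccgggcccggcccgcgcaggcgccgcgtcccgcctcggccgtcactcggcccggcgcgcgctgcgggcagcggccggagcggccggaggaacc
SERINC2: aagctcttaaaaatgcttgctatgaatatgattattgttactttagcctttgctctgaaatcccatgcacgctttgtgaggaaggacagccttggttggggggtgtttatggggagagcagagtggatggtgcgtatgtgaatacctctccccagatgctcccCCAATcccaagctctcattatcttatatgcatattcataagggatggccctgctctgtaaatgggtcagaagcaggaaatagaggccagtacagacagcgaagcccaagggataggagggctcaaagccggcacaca
ZCCHC17: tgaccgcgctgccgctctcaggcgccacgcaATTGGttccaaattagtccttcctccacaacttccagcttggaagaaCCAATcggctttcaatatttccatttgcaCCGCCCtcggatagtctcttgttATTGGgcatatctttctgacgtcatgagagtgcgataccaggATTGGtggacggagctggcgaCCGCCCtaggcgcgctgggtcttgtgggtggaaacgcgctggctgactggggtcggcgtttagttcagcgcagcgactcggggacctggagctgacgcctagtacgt
SNRNP40: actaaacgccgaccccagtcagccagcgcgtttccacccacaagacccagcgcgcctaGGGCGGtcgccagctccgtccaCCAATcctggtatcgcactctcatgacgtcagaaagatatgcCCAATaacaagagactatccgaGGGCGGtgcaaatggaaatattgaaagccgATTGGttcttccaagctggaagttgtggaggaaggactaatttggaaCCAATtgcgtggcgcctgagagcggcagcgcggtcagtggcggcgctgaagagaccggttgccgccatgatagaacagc

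These 6 windows differ in composition, apart from those of ZCCHC17 and SNRNP40, which share most of their bases. All but the window of SERINC2 hold a GC box. The window of BAI2 holds 48 CpG pairs and that of SERINC2 holds 4, and the GC content is 80.3% and 48.0%. TINAGL1 has 4 GC boxes, of which 2 overlap, and no CCAAT, while ZCCHC17 and SNRNP40 share 4 CCAAT motifs and 2 GC boxes. SERINC2 has 4 start sites in RefSeq and TINAGL1 has 2, and which of them is used in C4-2 cells was not measured. Of the 34 genes 31 have a window, all but MATN1, HCRTR1 and TMEM39B. GGGCGG was in 24 of 31 (77.4%, against 44.9% of 34943 RefSeq promoter windows), CCAAT in 14 (45.2%, against 34.6%) and TATAAA in 1 (3.23%, against 11.6%). TGACGTCA, the full cyclic AMP response element, was in 4 (12.9%, against 1.84%), namely PTPRU, PEF1 and the pair that shares its promoter, so these are 3 places in the DNA. TGACTCA was in 1 (3.23%, against 4.96%) and TTTGAA in 1 (3.23%, against 15.2%). All motifs were searched on both strands and are descriptions of the letters. Each member counts with its most upstream window alone, while the 34943 are all distinct windows, of genes expressed here or not. The 2 sets are thus unlike, and the shares were not tested. The direction of reading was compared as well. The 13 tested genes on the plus strand had a median log2 fold change of 0.74 with 12 above 0, and the 15 on the minus strand had 0.91 with 13 above 0. MATN1 and TMEM39B, which have no window, are in neither count.

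**Figure D2:**
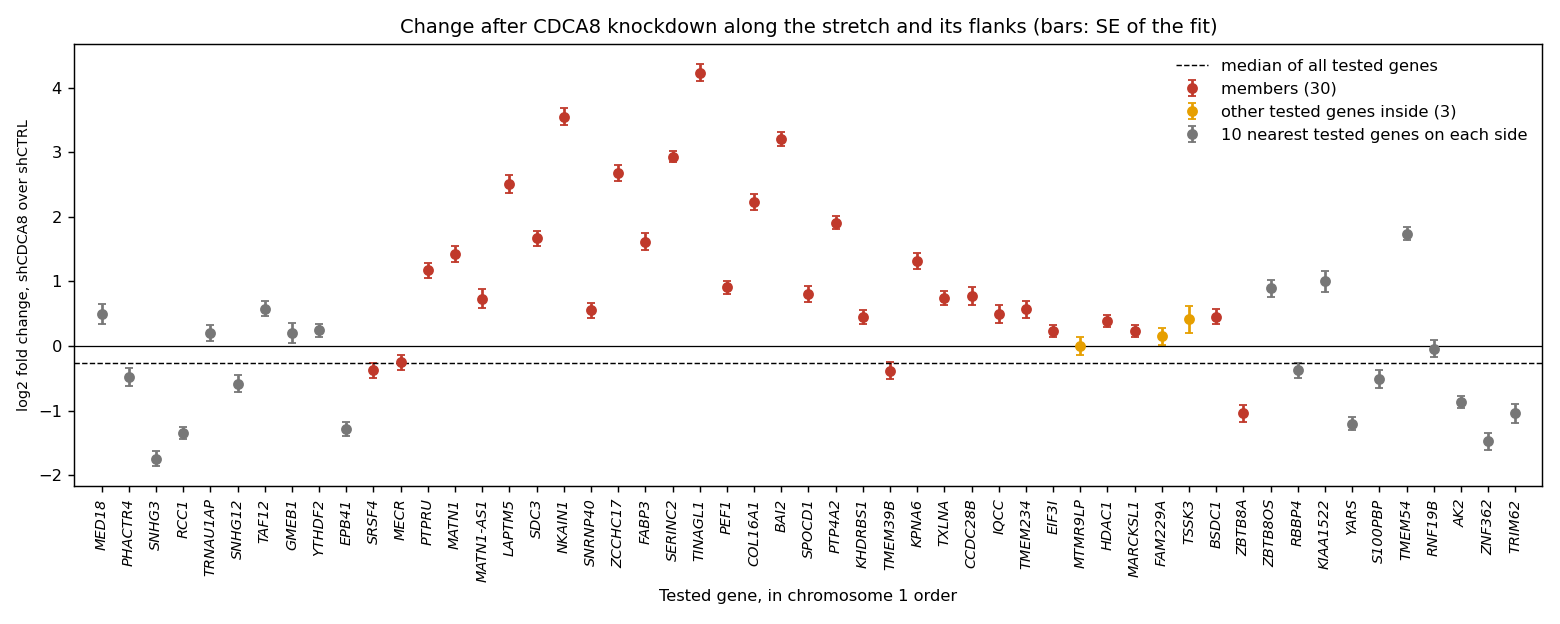
log2 fold change (shCDCA8 over shCTRL) with its SE for the tested genes shown, in chromosome order, with the 30 members in red, 3 other tested genes inside the stretch in orange and the 10 nearest tested genes on each side in grey; the dashed line is the median of all tested genes (-0.27). Values climb to 4.24 at TINAGL1, lie between -0.38 and 1.32 from KHDRBS1 to BSDC1, and are mixed in sign on both sides.

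Of the signalling and transport genes, PTP4A2, a prenylated phosphatase, was at 312 and 262 RPM in shCDCA8 libraries, against 74.1 and 76.5 RPM in shCTRL libraries (log2 fold change 1.91 ± 0.104). KPNA6, an importin alpha that carries cargo into the nucleus, was at 66.1 and 57.5 RPM in shCDCA8 libraries, against 22.1 and 26.3 RPM in shCTRL libraries (1.32 ± 0.122). PEF1, a calcium-binding adaptor, was at 78.6 and 85.6 RPM in shCDCA8 libraries, against 44.1 and 42.3 RPM in shCTRL libraries (0.91 ± 0.102). These 3 genes were each expressed in shCTRL and separated from it by more than the spread of the replicates. TXLNA, which encodes the syntaxin-binding protein taxilin, was at 129 and 133 RPM in shCDCA8 libraries, against 72.6 and 83.1 RPM in shCTRL libraries (0.74 ± 0.101). MECR, an enzyme of mitochondrial fatty acid synthesis, was at 17.9 and 16.7 RPM in shCDCA8 libraries, against 20.5 and 21.0 RPM in shCTRL libraries (-0.25 ± 0.117). Its difference is close to the median of all tested genes (-0.27), and its sign turned when libraries were scaled by median ratios (0.048).

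Of the nuclear and other proteins, HDAC1, a class I histone deacetylase, was at 128 and 125 RPM in shCDCA8 libraries, against 92.6 and 101 RPM in shCTRL libraries (log2 fold change 0.38 ± 0.0959). ZBTB8A, a zinc-finger protein gene at the end of the stretch, was at 1.28 and 1.36 RPM in shCDCA8 libraries, against 3.96 and 3.62 RPM in shCTRL libraries (-1.04 ± 0.131). It is the member with the largest difference downward. SPOCD1, known in mouse for DNA methylation of transposons in the male germ line, was at 1.45 and 1.25 RPM in shCDCA8 libraries, against 0.319 and 0.364 RPM in shCTRL libraries. MARCKSL1, an actin-binding protein gene, was higher by 0.24 ± 0.0889 and BSDC1 by 0.45 ± 0.115. CCDC28B, a ciliary protein gene, was higher by 0.77 ± 0.141 and its neighbour IQCC by 0.50 ± 0.143. In RefSeq CCDC28B overlaps TXLNA, which has far more reads. The low genes DCDC2B and FAM167B had 77 and 72 reads in both shCDCA8 libraries together, against 15 and 41 in shCTRL. For DCDC2B the ratio of reads per divisor was 4.77 (exact 95% interval 2.72 to 8.94). It overlaps TMEM234, which has more reads.

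Several of the smaller differences rest on the whole set of libraries. EIF3I did not pass without shCTRL replicate 1 (0.20), shCTRL replicate 2 (0.27) or shCDCA8 replicate 1 (0.18), nor MARCKSL1 without shCTRL replicate 1 (0.16) or shCDCA8 replicate 1 (0.19), nor IQCC without shCDCA8 replicate 1 (0.36). SRSF4 did not pass without shCTRL replicate 2 (-0.34) or shCDCA8 replicate 1 (-0.33). TMEM39B did not pass without shCTRL replicate 2 (-0.30), shCDCA8 replicate 1 (-0.38) or shCDCA8 replicate 2 (-0.39). Neither SRSF4 (-0.077) nor TMEM39B (-0.11) passed under median-ratio scaling. RefSeq lists named pseudogenes of NKAIN1, SNRNP40, FABP3, PTP4A2, EIF3I, HDAC1 and MARCKSL1, with which reads of these 7 genes can be shared.

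Some rows of the table lie inside the stretch without being members. Of those tested, MTMR9LP (-0.0035), FAM229A (0.15) and TSSK3 (0.41) did not pass. Among the low rows, the noncoding genes LINC01225 and LINC01226, which lie between SERINC2 and TINAGL1, had 37 and 59 reads in shCDCA8 libraries together, against 0 and 1 read in shCTRL libraries together. Adding up, 18 tested genes in a row from PTPRU to KHDRBS1 stood above 0, of which 17 are members. The next longest such runs in the genome held 14 genes, EGLN3 to MBIP on chromosome 14 and ZNF528 to ZNF765 on chromosome 19. The members were chosen by these same values, so the length of the run from PTPRU to KHDRBS1 is no separate result.

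Just outside the stretch, the nearest tested gene before SRSF4 is EPB41, a membrane skeleton gene, with a log2 fold change of -1.29 ± 0.106, and the nearest after ZBTB8A is ZBTB8OS, with 0.89 ± 0.131. Just inside, SRSF4 was at -0.38 and ZBTB8A at -1.04. Of the 10 nearest tested genes before the stretch 3 rose and 5 fell (median -0.14, from -1.74 for SNHG3 to 0.58 for TAF12). Among those that fell, SNHG12 passed the filter through the shCTRL libraries alone and so had to stand lower. Of the 10 after the stretch 3 rose and 6 fell (median -0.45). Among these TMEM54 was higher by 1.74, at 75.3 and 80.2 RPM in shCDCA8 libraries against 22.3 and 22.8 RPM in shCTRL libraries. Of 1156 other tested genes of chromosome 1, 207 rose and 560 fell (18.8% and 47.6% of all tested genes did), with a median of -0.29. Under median-ratio scaling 382 of these passed upward and 388 downward (median -0.0040), 5 and 4 of the 10 genes before the stretch, and 3 and 4 of the 10 after it.

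CDCA8 lies further along the same arm, with 44 tested genes between ZBTB8A and it. Of its 5 nearest tested neighbours on the side of the stretch, GNL2 rose (0.85), C1orf109 fell (-1.09) and 3 did not pass, with a median of 0.11. On the other side 4 of 5 fell, with MANEAL lowest (-1.96) and YRDC higher (0.36), and a median of -1.30. Under median-ratio scaling 3 of the first 5 passed upward and 1 downward, and 1 of the other 5 upward and 4 downward.

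**Figure D3:**
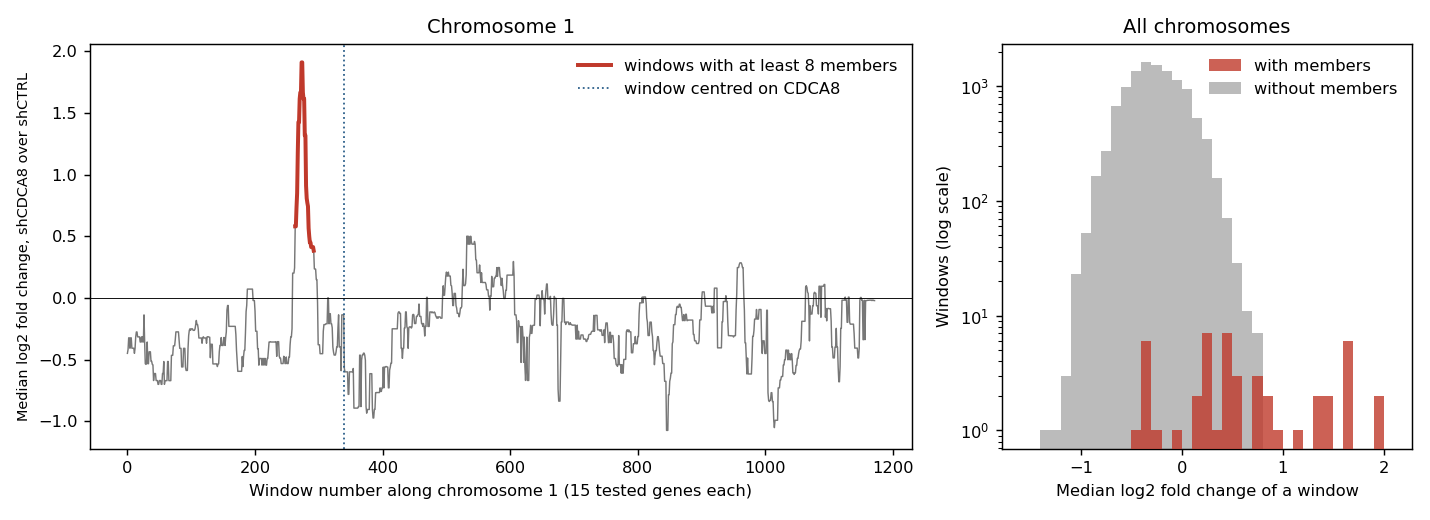
Left, median log2 fold change (shCDCA8 over shCTRL) of each run of 15 neighbouring tested genes along chromosome 1, with windows that hold at least 8 members in red and the window centred on CDCA8 marked; right, the number of windows at each median over all chromosomes, on a log scale. The peak of the stretch reaches 1.91, and no window without a member exceeds 0.73.

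To see where neighbours elsewhere stand together, the median was taken over each of 11287 windows of 15 neighbouring tested genes. The window from MATN1-AS1 to PTP4A2, in which 14 of 15 genes are members, had the highest median, 1.91. The stretch was chosen as the neighbours that stood highest after the knockdown, so this rank is no separate result. The highest window without a member, MOCS2 to GPBP1 on chromosome 5, had 0.73, and the lowest of all, SHMT2 to CDK4 on chromosome 12, had -1.32. The median over windows was -0.27. In all, 19 overlapping windows with members lay above the chromosome 5 window. With windows of 9 and 25 genes the stretch was again first, at 2.68 and 1.17, against 1.09 and 0.44 for the highest window without a member.

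Members were also set beside other genes of like level in shCTRL. Among members with a mean of 1 to 20 RPM in shCTRL the median log2 fold change was 0.65 (8 genes, from -1.04 to 3.20), against -0.25 over 7202 tested genes of that level. Among members of at least 20 RPM it was 0.65 as well (16 genes, from -0.38 to 2.93), against -0.32 over 4461 genes. Because this contrast chose the members, a higher median was set by the choice, and nothing is read from it. The 6 members under 1 RPM in shCTRL are those that passed the filter through shCDCA8 alone.

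A measure that the choice of genes did not use is the difference between replicates of 1 group. In shCDCA8, replicate 2 minus replicate 1 had a median of -0.055 over the 30 members and 0.039 over all tested genes, and replicate 2 was the lower in 20 of 30 members (66.7%) against 41.5% of all tested genes. In shCTRL the medians were 0.086 and 0.068, and replicate 2 was the lower in 4 of 30 members (13.3%) against 4144 of 11833 tested genes. The median size of the difference was 0.11 in shCDCA8 and 0.097 in shCTRL for members, against 0.13 in both groups for all tested genes. Replicates of the members were thus about as close as those of other genes.

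Families and complexes to which members belong were set beside them, to see whether partners encoded elsewhere moved with them. KPNA6 (log2 fold change 1.32) stood above all 6 tested genes of the importin list, where KPNA1 and KPNA3 rose, KPNA2 and KPNB1 fell, and the values ran from -0.75 (KPNB1) to 0.70 (KPNA3). SNRNP40 (0.55) stood between PRPF6 (0.65), which rose, and the other 6 of 7 tested U5 genes, of which EFTUD2 (-0.59) and CD2BP2 fell. EIF3I (0.23) lay within the range of 11 tested eIF3 genes, from -0.34 (EIF3L) to 0.96 (EIF3J), of which 3 rose and 1 fell. HDAC1 (0.38) was set beside 20 tested genes of class I deacetylases and their complexes. Of these 13 fell and 2 rose, from -1.10 (MTA3) to 0.55 (HDAC2). The list includes the deacetylases HDAC3 and HDAC8, which both fell, so not all of it are partners of HDAC1. SRSF4 (-0.38) had 9 tested SR protein relatives, all below 0, of which 7 fell, from -1.01 (SRSF8) to -0.076 (SRSF2). Over all tested genes 18.8% rose and 47.6% fell. Under median-ratio scaling, which moves the median of all tested genes to 0.0058, 10 eIF3 genes passed upward and 0 downward. With that scaling 4 genes of the deacetylase list passed upward and 10 downward, and of the SR genes 1 passed upward and 3 downward. Of the importin genes 4 passed upward and 1 downward, and of the U5 genes 2 upward and 1 downward. Over all tested genes 33.2% passed upward and 33.6% downward with that scaling.

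**Figure D4:**
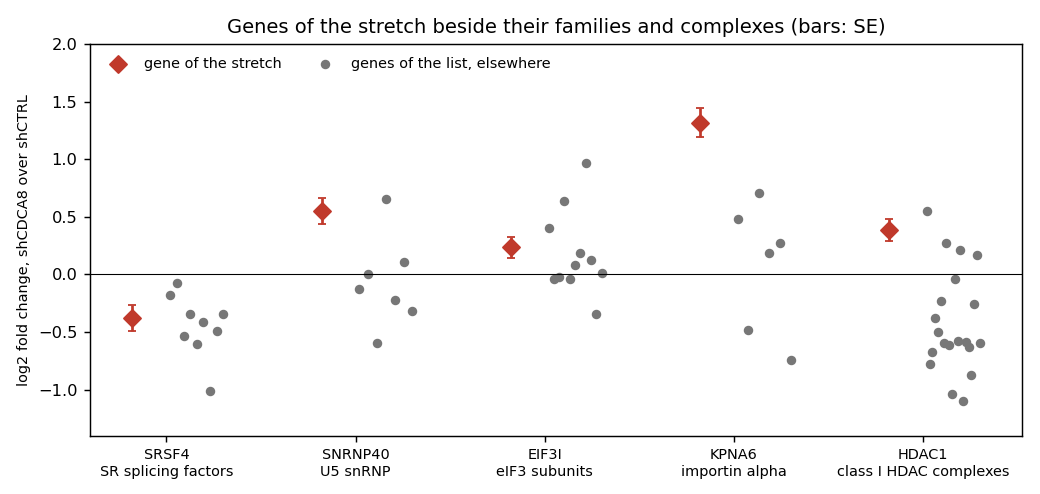
log2 fold change (shCDCA8 over shCTRL) of 5 genes of the stretch (red diamonds, bars for SE) and of the tested genes of the family or complex each belongs to, encoded elsewhere (grey points). KPNA6 lies above every gene of its list, and EIF3I and SRSF4 lie within theirs.

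Close relatives of the members moved in both directions. Of 27 tested relatives 4 rose (SERINC1, PTPRK, TXLNG and YES1) and 13 fell (median -0.24). Values ran from -1.69 for SDC1, a syndecan, to 0.85 for YES1, a Src-family kinase. BAI1 and FYN, which fell, and KHDRBS3, which did not pass the threshold, passed the filter through the shCTRL libraries alone. These relatives had to stand lower. Over all tested genes 18.8% rose and 47.6% fell, with a median of -0.27, so nothing is read from the counts of relatives. Beside SDC3 (1.67) stood SDC1 (-1.69), SDC2 (-0.037) and SDC4 (0.058). Beside PTP4A2 (1.91) stood PTP4A1 (-0.55) and PTP4A3 (-0.60), and beside SERINC2 (2.93) stood SERINC1 (0.75), SERINC3 (0.048), SERINC4 (-0.13) and SERINC5 (-0.79). Under median-ratio scaling 9 relatives passed upward and 10 downward (median -0.077), where 33.2% and 33.6% of all tested genes did. The differences between members and relatives were not tested.

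MicroRNAs of the stretch could be looked up in the other experiment of the series, small RNA of C4-2 cells with a hairpin against EZH2 (shEZH2), the Polycomb methyltransferase, or with a control hairpin, 2 libraries each. RefSeq places 3 microRNA genes in the stretch, and of their 4 mature forms those of MIR5585 are listed in the table. They are given with the seed, bases 2 to 8, in capitals, since the 2 arms of 1 hairpin have different seeds.
hsa-miR-5585-5p: uGAAGUACcagcuacucgagag
hsa-miR-5585-3p: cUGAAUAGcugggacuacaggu
The 5p form had 3 and 0 reads in shEZH2 libraries, against 0 and 2 reads in shCTRL libraries. The 3p form had 4 and 1 reads in shEZH2 libraries, against 3 and 1 reads in shCTRL libraries. With at most 4 reads in a library, the groups overlapped for both forms, and no difference was detectable at this depth.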

How the data were processed

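RNA sequencing values were deposited by the authors as RPM, with 1 column per library and 18892 gene rows, and small RNA values as RPM with 1506 rows. Per the submitters' processing notes the build was hg19 and the tools were cutadapt, TopHat, HTSeq and edgeR; neither versions nor the use of each tool per table are stated. Every deposited RPM value above 0 was a whole multiple of 1 step per library (100% within 0.01 of a read), so whole reads were recovered. All rows were named.

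In R 4.3.3, log2(RPM + 1) was fitted with limma 3.58.1 (eBayes with trend, two-sided, Benjamini-Hochberg over 11833 genes), and edgeR 4.0.16 (7807 calls) and DESeq2 1.42.0 (7214 calls) were run on the recovered reads. "Rose" and "fell" are used of limma calls, 7852 in all. The fit was also run on simulated reads in which 11633 of 11833 genes were unchanged, and 6 of those were called. It recovered 58.0% of 81 genes changed 1.5-fold, 98.2% of 55 changed 2-fold and 100% of 64 changed 4-fold. The simulated reads held no shift of the whole table and few changed genes, unlike the data, so they do not test the fit under such a shift. No 2 replicates were 1 library deposited again: their reads differed beyond sampling error, with a chi-square of 10.6 (shCDCA8) and 8.50 (shCTRL) for each degree of freedom. Of the rows, 18123 were matched to RefSeq symbols, older names included, for their order. Counting intervals are exact binomial, on reads summed over the replicates, and were given for members with under 30 shCTRL reads. They cover counting error only, not the spread between replicates. They are no test of a member, because this contrast chose the members.

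The members, the family and marker lists and the tests were chosen with earlier results of these data known. Named genes are all members, other rows inside the stretch, 10 tested genes on each side, CDCA8 with 5 on each side, and the highest and lowest gene of each list; relatives of SDC3, PTP4A2 and SERINC2, and listed genes named beyond that, were chosen after their values were seen. The rule for printed promoters also limited protein length, which was not used here. Alternatives covered the pseudocount, the filter, the scaling, the test, a replicate block, each library left out and the window size. Results for 2 genes that the rule or a marker list names are not reported here.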

Additional observations from a re-analysis of the deposited data

How the results depend on the processing

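The median log2 fold change over the tested members (0.79) stayed above 0 under all 14 alternatives to the fit. It was 0.94 with a pseudocount of 0.1, 0.55 with one of 5, 1.06 with median-ratio scaling, 1.07 with scaling to the gene rows, 1.09 with quantile normalization, 1.26 with edgeR and 1.27 with DESeq2. Leaving out 1 library gave 0.75 to 0.86 for the median, 6717 to 7683 calls over all genes and 23 to 26 members called higher. Over all alternatives 22 to 27 members were called higher, the lowest with a filter of 5 RPM (25 tested) and the highest with no filter (34 tested). Median-ratio scaling changed the split of calls over all genes to 3931 higher and 3979 lower, from 2224 and 5628. MECR turned to 0.048 with median-ratio scaling, 0.061 with scaling to the gene rows, 0.00015 with quantile normalization, 0.046 with edgeR and 0.052 with DESeq2. The other 29 tested members kept their sign, 26 of them above 0. In 23 of 415 member-by-alternative values a call was lost, all of SRSF4, TMEM39B, EIF3I, MARCKSL1 or IQCC, and the cause was not tested. The replicate numbers are not stated to pair cultures; the correlation of deviations between equal numbers was 0.31, and with the number as a replicate block 8901 genes and 26 members upward were called, with the median at 0.79, and MECR passed downward. Depth limits MATN1, LAPTM5, HCRTR1 and DCDC2B, with 6, 25, 1 and 15 reads in both shCTRL libraries together.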
